A study of Canis lupus familiaris with 5 samples.

Results

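The 9 genes DCK, DGUOK, TK1, ADA, PNP, HPRT1, MTAP, UPP1 and CTPS2 encode enzymes that recycle nucleosides, break them down or supply nucleotides, and several of them activate or inactivate nucleoside drugs. They were taken by gene symbol from the annotation of an Affymetrix canine array. All 9 had at least 1 probe set, 21 probe sets in all of the 42924 on the array that are not Affymetrix controls, and all 9 genes and 19 of their probe sets reached the minimum level for testing (log2 5 on at least 2 arrays). The arrays measured total RNA from 5 untreated canine lymphoid tumour lines kept in RPMI medium with serum. Per their labels, 17-71 came from a B-lymphoid malignancy and GL-1 from a B-cell leukemia, which makes 2 B-labelled lines. CL-1 is labelled a primitive alpha/beta T-cell leukemia, CLGL-90 a leukemia of large granular lymphocytes (LGL) with a T-cell label, and CLL-1390 a primitive T-cell leukemia, which makes 3 T-labelled lines. Each line was measured on 1 array, so any spread is that between lines, and no value of a single line has an error of its own.

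Salvage enzymes return free nucleosides and bases to the nucleotide pool, so that a cell need not build every nucleotide anew. Lymphocytes depend on these steps to an unusual degree: inherited loss of adenosine deaminase (ADA) or purine nucleoside phosphorylase (PNP) lets deoxynucleosides build up and causes immunodeficiency. The same enzymes handle drugs used against leukemia and lymphoma. Deoxycytidine kinase (DCK) adds the first phosphate to cytarabine, gemcitabine, cladribine and fludarabine, and hypoxanthine-guanine phosphoribosyltransferase (HPRT1) activates mercaptopurine and thioguanine. Some further genes of these routes are described after the 9 enzymes.

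Values are log2 expression per probe set after the authors' normalization, and levels of different genes are not compared, since each probe set has its own response. As a guide to background, the array carries 59 control probe sets for sequences that dogs lack. Their median was 4.07 to 4.29 on the 5 arrays, and the highest of them, called the control ceiling here, was 6.39 to 6.76. The 27 probe sets for RNAs spiked into the hybridization ranged over 0.21 to 0.80 between arrays (median 0.68), and 25 of them were lowest on the CL-1 array. Differences between lines of that size are therefore no larger than those of the spikes. Lineage markers only partly followed the labels. The B-lineage probe sets above the control ceiling numbered 3 and 4 of 8 in the B-labelled lines and 2 to 3 in the T-labelled lines, and CD79B and CD22 were under it in every line. Of 8 T-lineage markers, 8 were above it in CLGL-90, 5 in CL-1, 5 in CLL-1390, 6 in GL-1 and 3 in 17-71. Cytotoxic markers were above it in CLGL-90 for 6 of 7 genes, against 1 to 3 in the other lines. Fibroblast and epithelial markers were above it for 1 or 2 of 7 genes in each line, and all 3 erythroid probe sets were above it in all 5.

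The enzymes differed more between the lines than most genes did, and in 4 of them 1 line stood far below the rest by at least 1 probe set. The range over the 5 lines reached log2 2 in 6 of the 9 (DGUOK, CTPS2, UPP1, MTAP, ADA and DCK), against 14.2% of the 14162 genes tested, and the median range was 3.55 against 0.76. In 3 of the 9, a single line lay at least log2 2 below every other line, against 1.21% of genes. These were DGUOK in GL-1, CTPS2 in CLGL-90 and ADA in CLL-1390. With the mean of a gene's probe sets in place of its representative, the steps of CTPS2 and ADA came to 1.89 and 1.86, under that threshold. That of MTAP in CLGL-90 came to 3.61, over it. The CTPS2 mean takes in 2 probe sets that read 3.03 to 3.44 in every line, and both tested probe sets had steps over log2 2 (5.38 and 2.07). No member had a line that far above all others, which 2.97% of genes did. Counted by probe set, 7 of the 19 tested had a line that far below the rest, against 1.11% of probe sets, and the seventh gave MTAP in CLGL-90. The 9 were proposed with earlier results of these data known, so these shares describe them and are not evidence that such enzymes vary more than other genes.

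**Figure D1:**
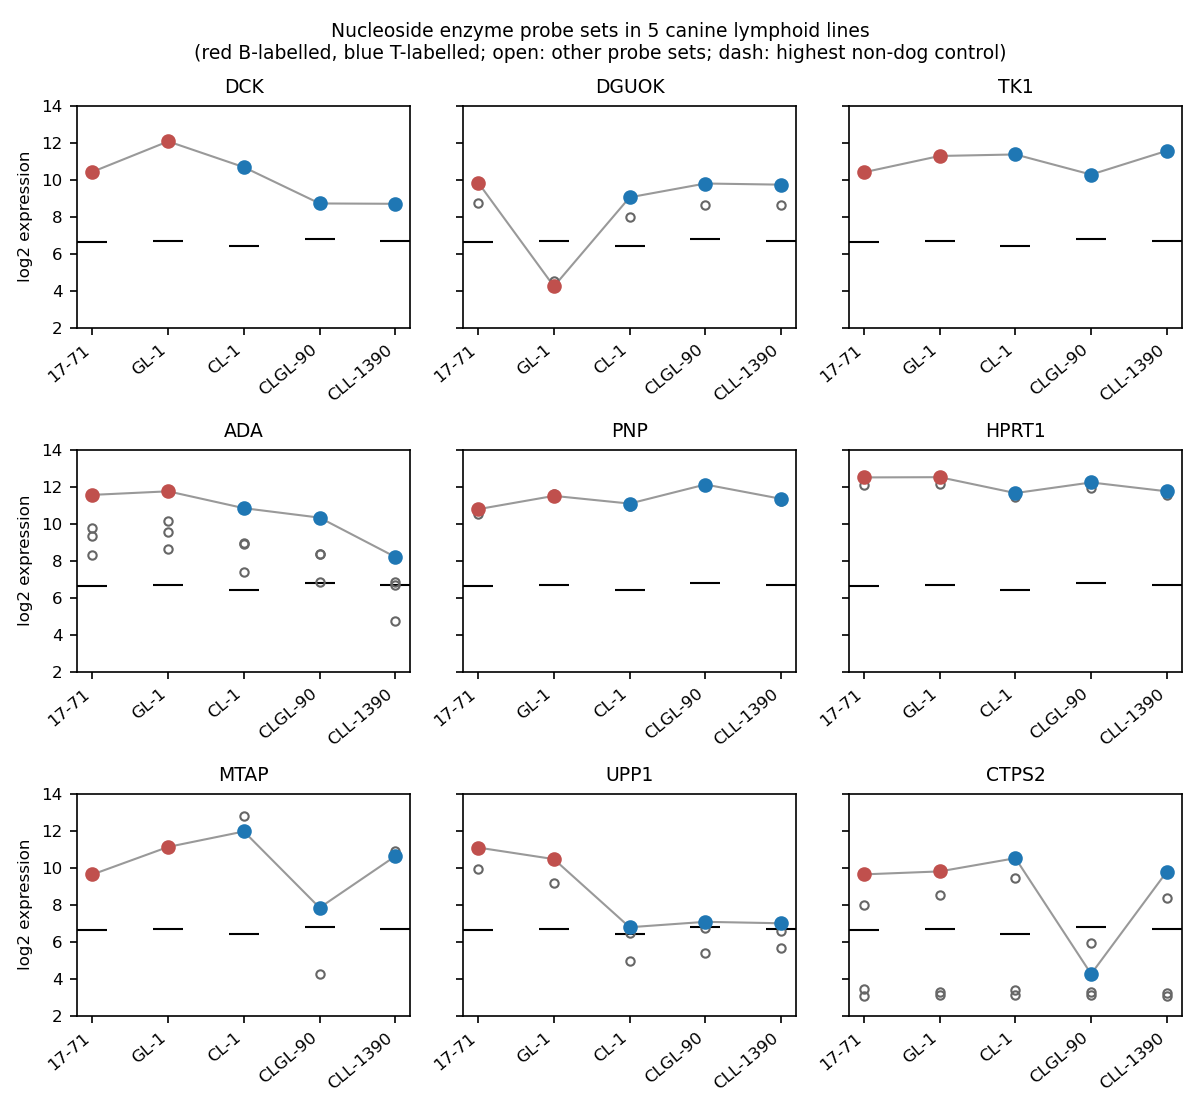
Log2 expression (vertical axis) of each enzyme's probe sets in the 5 lines (horizontal axis), with the probe set that represents the gene in colour (red for the 2 B-labelled lines, blue for the 3 T-labelled lines), other probe sets as open circles, and each array's control ceiling as a dash. DGUOK reads 4.22 in GL-1, CTPS2 4.25 in CLGL-90 and ADA 8.19 in CLL-1390, while UPP1 is high in both B-labelled lines.

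Among the kinases, DGUOK was at background in GL-1 and well above it in the other 4 lines. Deoxyguanosine kinase acts in mitochondria, where it phosphorylates purine deoxynucleosides for mitochondrial DNA synthesis and also accepts purine analogues. Its representative probe set, the one of highest mean, read 9.83 in 17-71, 4.22 in GL-1, 9.04 in CL-1, 9.78 in CLGL-90 and 9.72 in CLL-1390. GL-1 alone was low, close to the median of the non-dog controls on its array (4.15), and the other 4 lines were spread over 0.79. The step from GL-1 up to the next line was 4.81 on the log2 scale, where the SD of the other 4 lines was 0.37. Only 0.148% of genes had GL-1 at least log2 2 below every other line, and by size the step of DGUOK ranked 5 among the 2259 genes that were lowest in GL-1. The second DGUOK probe set gave the same picture, with 4.53 in GL-1 against 7.97 to 8.76. Since the low value sat at background, the size of the step is limited by the floor of the array.

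DCK, the kinase of the cytosol and nucleus that activates most deoxycytidine and deoxyadenosine analogues, was graded across the lines. It stood at 10.41 in 17-71, 12.06 in GL-1, 10.67 in CL-1, 8.71 in CLGL-90 and 8.69 in CLL-1390. GL-1 was highest, by 1.39 over CL-1, so the line at background for DGUOK had the highest DCK level of the 5. CLGL-90 and CLL-1390 differed by 0.018, and 17-71 and CL-1 by 0.25, both within the range of the spikes. A single probe set measured DCK, and all of its values were above the control ceiling.

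TK1, the cytosolic thymidine kinase, which is made in S phase and serves as a serum marker in canine lymphoma, was well above the control ceiling in all 5 lines. It read 10.39 in 17-71, 11.27 in GL-1, 11.35 in CL-1, 10.27 in CLGL-90 and 11.55 in CLL-1390. The values form a lower pair (CLGL-90 and 17-71, 0.12 apart) and an upper group of 3 lines within 0.28, with a step of 0.88 between them. Its range of 1.29 was larger than that of 70.9% of genes, and the range and the step both exceeded the widest range of the spikes (0.80).

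ADA, which deaminates adenosine and deoxyadenosine, was lowest in CLL-1390 by all 4 of its probe sets. The representative one read 11.55 in 17-71, 11.74 in GL-1, 10.83 in CL-1, 10.32 in CLGL-90 and 8.19 in CLL-1390. CLL-1390 lay 2.13 under CLGL-90. In 0.254% of genes CLL-1390 was at least log2 2 below every other line, and the step of ADA ranked 31 among the 2000 genes lowest in this line. The steps of the other 3 probe sets were 2.11, 1.67 and 1.54. By the first of these CLL-1390 stood at 4.73, under the control ceiling of its array (6.70). By the others it read 6.70 and 6.83, just above the ceiling, so the size of all 3 steps may be limited by background. By the representative probe set CLL-1390 was well above the ceiling. 17-71 and GL-1 were within 0.19 of each other at the top.

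PNP, which acts after ADA and splits inosine and guanosine, did not share the low value of CLL-1390. It read 10.77 in 17-71, 11.49 in GL-1, 11.08 in CL-1, 12.11 in CLGL-90 and 11.34 in CLL-1390, and its second probe set kept CLGL-90 highest (12.06) and 17-71 lowest (10.53). Steps between neighbouring lines in order of level were at most 0.61 by the representative probe set, within the range of the spikes. The whole range of PNP was 1.33, and 1.53 by the second probe set, both over the widest range of the spikes (0.80). HPRT1, often used as a reference gene, was the least variable member. It read 12.49 in 17-71, 12.50 in GL-1, 11.65 in CL-1, 12.22 in CLGL-90 and 11.74 in CLL-1390, a range of 0.86. CL-1, the array on which the spikes were mostly lowest, was also lowest for HPRT1. The part of array-wide differences in these 0.86 units was not tested.

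MTAP, methylthioadenosine phosphorylase, recovers adenine and methionine from the by-product of polyamine synthesis and is known for being deleted together with its neighbour CDKN2A in many tumours. It was lowest in CLGL-90 by both probe sets, which disagreed on how low. The representative probe set read 9.62 in 17-71, 11.11 in GL-1, 11.95 in CL-1, 7.83 in CLGL-90 and 10.61 in CLL-1390. The second read 9.69, 11.14, 12.77, 4.26 and 10.91 in the same lines. CLGL-90 was thus close to the non-dog control median of its array (4.29) by 1 probe set and above the control ceiling (6.76) by the other, with steps of 5.43 and 1.80 to 17-71. CL-1 was highest by both, and 17-71, GL-1, CLL-1390 and CL-1 were spread over 2.32 in the representative probe set.

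Of the pyrimidine enzymes, UPP1 divided the lines by label. Uridine phosphorylase splits uridine into uracil and ribose phosphate and can convert 5-fluorouracil into its nucleoside. UPP1 read 11.08 in 17-71 and 10.45 in GL-1, against 6.77 in CL-1, 7.06 in CLGL-90 and 6.99 in CLL-1390. The groups did not overlap, and the T-labelled values lay 0.29 to 0.38 above the control ceiling of their arrays. The other probe sets read 11.12 and 10.47 against 4.93 to 5.67, and 9.92 and 9.19 against 6.45 to 6.71. By the first of these every T-labelled value was under the control ceiling, so how far the T-labelled lines lie below depends on the probe set and on background. The same 2 lines held myeloid transcripts. Of 8 myeloid markers, 6 were above the control ceiling in 17-71 and 6 in GL-1, against 2 in CL-1, 1 in CLGL-90 and 3 in CLL-1390. Their summed log2 level was 72.7 and 70.4 against 44.0 to 46.0. Among defining markers, LYZ (3.28 to 4.02), S100A8 and S100A9 (4.28 to 4.98) lay at background in the T-labelled lines. SPI1 (9.45 and 8.94 against 5.21 to 5.51) and CYBB (11.09 and 9.19 against 6.04 to 6.98) were also higher in both B-labelled lines. MPO, CD14 and CSF1R did not follow the labels. MPO was under the control ceiling in all 5 lines, and CD14 was above it in all 5 (7.95 to 8.26). CSF1R was above it only in CL-1 (6.55) and CLL-1390 (6.72), both T-labelled. The part of myeloid expression in the UPP1 difference was not tested.

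CTPS2, 1 of the pair of CTP synthases that make CTP from UTP, was at background in CLGL-90. Its representative probe set read 9.63 in 17-71, 9.79 in GL-1, 10.50 in CL-1, 4.25 in CLGL-90 and 9.78 in CLL-1390. CLGL-90 lay 5.38 under the next line, the largest such step among the 2156 genes lowest in CLGL-90, and 0.169% of genes had this line at least log2 2 below the rest. The other responsive probe set had CLGL-90 at 5.92 against 7.99 to 9.44, a step of 2.07. Another 2 probe sets named for CTPS2 read 3.03 to 3.44 in every line and were too dim to test. 17-71, GL-1 and CLL-1390 were within 0.16 of each other. CTPS1, the other synthase, had no probe set named for it alone in the annotation and was not analysed here.

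The labels were compared by limma across all genes, two-sided with Benjamini-Hochberg adjustment, which asks whether a gene separates the labels by more than the lines of 1 label differ. None of the 9 passed an adjusted p of 0.05, where 1 of 14162 genes (0.00706%) did, and none of 19 probe sets passed, where 5 of 36661 (0.0136%) did. At an unadjusted p under 0.05, 2 of the 9 genes were counted, UPP1 and HPRT1, both higher in the B-labelled lines, as were 1.89% of genes. UPP1 came nearest. Its B-labelled mean was 10.77 ± 0.44 (SD, n = 2) and its T-labelled mean 6.94 ± 0.15 (SD, n = 3). They differed by 3.82 (SE 0.26, limma adjusted p = 0.0573), and both B-labelled lines were higher. Its adjusted p crossed the threshold with the probe set of highest variance (difference 5.47, 0.0421) and among genes reaching log2 7 on at least 2 arrays (0.0455), and reached 0.427 without CL-1. Over 14 alternatives it ran from 0.0421 to 0.427.

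For HPRT1 the difference was 0.63 (SE 0.24, unadjusted p = 0.0483 by limma), which is within the range of the spikes. ADA differed by 1.86 (SE 0.85) and DCK by 1.88 (SE 0.85), both with higher B-labelled means. Both B-labelled lines were above every T-labelled line in 3 of the 9 genes (UPP1, ADA and HPRT1), against 6.12% of genes, and the reverse held for none, against 9.26%. The DCK ranges overlapped, since CL-1 lay above 17-71. CTPS2 differed by 1.53 (SE 2.04), MTAP by 0.24 (SE 1.33) and DGUOK by -2.49 (SE 1.69), and in each of these 1 line stood apart from the others of its label. Without GL-1 the DGUOK difference was 0.32, and without CLGL-90 that of CTPS2 was -0.43 and that of MTAP -0.91. TK1 differed by -0.23 (SE 0.51) and PNP by -0.37 (SE 0.41). The median difference of the 9 was 0.63, against -0.027 over all genes tested.

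**Figure D2:**
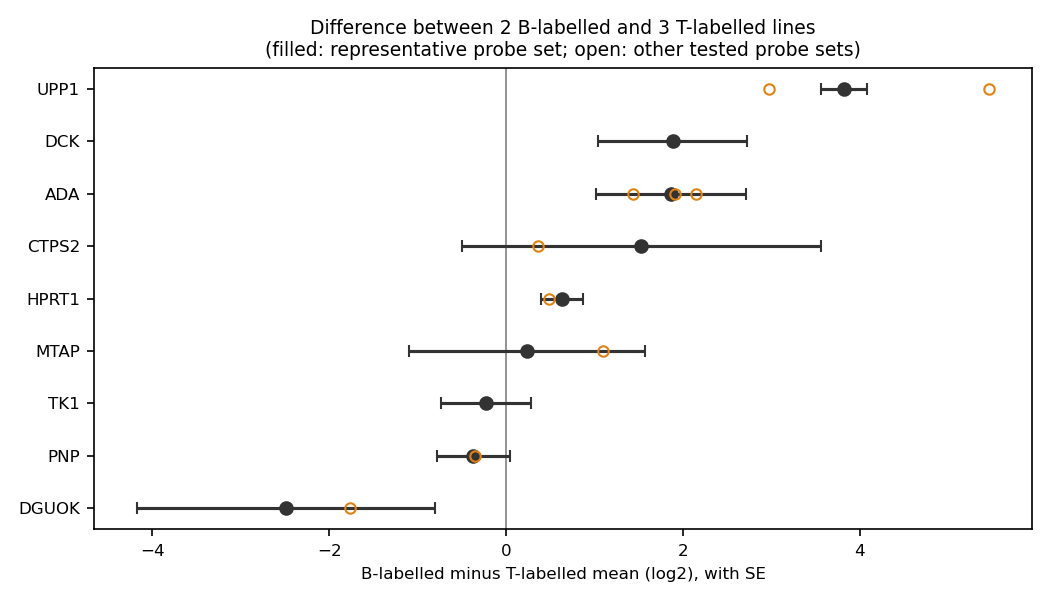
Difference in mean log2 expression between the 2 B-labelled and the 3 T-labelled lines (horizontal axis) for each enzyme (vertical axis), with bars for the standard error from limma and open circles for other tested probe sets. UPP1 lies farthest from 0 for its error, at 3.82, and DGUOK, CTPS2 and MTAP have the widest bars (SE 1.69, 2.04 and 1.33).

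Seen by pairs of lines, GL-1 and CLGL-90 differed most in these enzymes. In 5 of the 9 (DGUOK, UPP1, CTPS2, MTAP and DCK) they were at least log2 2 apart, against 4.02% of genes. DGUOK was low in GL-1, and the other 4 were low in CLGL-90. UPP1 and DCK were about as low in CLL-1390 (6.99 and 8.69) as in CLGL-90 (7.06 and 8.71). GL-1 and CLL-1390 were that far apart in DGUOK, UPP1, DCK and ADA (4 of 9, against 3.20% of genes). Lines of 1 label were also apart. 17-71 and GL-1 were that far apart in DGUOK (1 of 9, against 3.98% of genes). CL-1 and CLGL-90 were so in CTPS2 and MTAP (2 of 9, against 5.18%). CL-1 and CLL-1390 were so in ADA (1 of 9, against 6.07%), and CLGL-90 and CLL-1390 in CTPS2, MTAP and ADA (3 of 9, against 4.06%).

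The genes with the most similar pattern over the 5 lines, by the Euclidean distance between values centred on each gene's mean, were sought for the 6 members with a range of at least log2 2. For UPP1 they were SPI1, which encodes the myeloid and B-cell factor PU.1 (distance 0.081), and RNLS (0.62). SPI1 read 9.45 and 8.94 in the B-labelled lines against 5.21 to 5.51. Both SPI1 and RNLS were under the control ceiling in CL-1, CLGL-90 and CLL-1390. The distances hold for the representative UPP1 probe set. The labels differed by 5.47 and 2.97 in the other UPP1 probe sets, against 3.81 in SPI1. DGUOK was nearest to MSANTD4 (0.80) and PBDC1 (0.91), which were at 4.15 and 5.37 in GL-1, and CTPS2 to PECR (0.39), a peroxisomal reductase that read 5.97 in CLGL-90 against 11.00 to 12.15, and to UBE2E3 (1.72). MTAP was nearest to EFR3A (0.79) and CLDND1 (1.15), DCK to TMOD3 (0.81) and NFIL3 (0.87), and ADA to SNX10 (0.72) and RAB8B (0.75). With 5 lines and 14162 genes close matches are common, and likeness here is a description only.

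Around the 9 enzymes, 7 lists of related genes held 109 genes, of which 94 were tested. None of the 94 passed the limma test over all genes in either direction. At an unadjusted p under 0.05, TK2 and TOP2A were counted as higher in the B-labelled lines and APRT as higher in the T-labelled lines. That is 3 of the 94, where 498 of all 14162 genes tested were counted in either direction. A range of at least log2 2 was seen in 12 of the 94 (12.8%), near the 14.2% of all genes, and no gene of these lists had a line at least log2 2 below every other. The median difference between B-labelled and T-labelled lines was -0.016 for 14 genes of purine salvage and breakdown, -0.049 for 17 of pyrimidine salvage and breakdown, 0.097 for 22 of de novo synthesis and -0.14 for 9 of transport. It was -0.084 for 16 genes of analogue and antifolate response, 0.0048 for 13 of methionine salvage and polyamines, and -0.093 for 16 of S phase, against -0.027 over all genes.

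Among the purine partners, the line that stood apart differed from gene to gene. APRT, which salvages adenine as HPRT1 salvages hypoxanthine and guanine, stood at 10.10 in 17-71, 11.43 in GL-1, 11.85 in CL-1, 12.09 in CLGL-90 and 13.04 in CLL-1390. All T-labelled lines were above both B-labelled lines, a difference of -1.56 (SE 0.56, unadjusted p = 0.0410 by limma, adjusted p over all genes 0.9999), and CLL-1390, the line lowest for ADA, was highest for APRT. ADA2, the secreted deaminase of monocytes and macrophages, read 9.31 in 17-71, 8.24 in CL-1 and 8.42 in CLGL-90, and lay under the control ceiling in GL-1 (6.24) and CLL-1390 (6.34). These values are of the representative probe set, and the other 4 differed from it and from each other. By 1 of them GL-1 and CLL-1390 were again low, at 5.07 and 4.90 against 7.61 to 8.46. By another they were lowest but above the ceiling, at 6.70 and 6.90. By the next, every line was above the ceiling (7.06 to 7.78) and CLL-1390 was the middle line. The last was under the ceiling in every line. ADK, adenosine kinase, was within 11.61 to 12.71, and ADAL within 8.36 to 9.19. NT5C2, the cytosolic nucleotidase whose activating mutations cause thiopurine resistance in human leukemia, stood at 10.54 in both GL-1 and CLL-1390, and at 8.08 to 8.99 in the other lines. SAMHD1, which destroys deoxynucleotides and active cytarabine, was at or under the control ceiling in 4 lines and at 7.07 in CL-1, so its probe set gives little information.

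Among the pyrimidine partners, CDA, cytidine deaminase, inactivates cytarabine and gemcitabine. It stood at 11.79 in 17-71, 7.21 in GL-1, 7.06 in CL-1, 7.64 in CLGL-90 and 8.88 in CLL-1390, with 17-71 2.91 above the next line. Its second probe set showed the same order at the top, with 10.40 in 17-71 and 7.38 in CLL-1390. GL-1, the line with the highest DCK level, was among the low lines for CDA. DPYD, which degrades uracil and 5-fluorouracil, was at background in CLGL-90 (4.63) and CLL-1390 (4.27). It read 7.57 in 17-71, 8.94 in GL-1 and 9.83 in CL-1, a range of 5.56 against 4.74 for CDA, with the low end of DPYD at the floor. These values are of the representative probe set. By another, 17-71 read 5.89, under its control ceiling (6.60), and the last read 4.2 to 4.5 in every line. UCKL1, a relative of the uridine-cytidine kinases, stood at 12.97 in CL-1 against 10.35 to 10.60. All 5 of its probe sets were highest in CL-1, by 2.37 and 3.01 in 2 of them and by 0.20, 0.40 and 0.99 in the others, of which the smallest 2 are no larger than the widest range of the spikes (0.80). UCK2, the main uridine-cytidine kinase, was within 9.00 to 10.47. DTYMK, which adds the second phosphate after TK1, was within 10.94 to 12.43 and, like TK1, highest in CLL-1390. TK2, the mitochondrial thymidine kinase related to DGUOK and DCK, ranged over 0.86 near background (6.24 to 7.10), with a difference of 0.57 (SE 0.22).

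**Figure D3:**
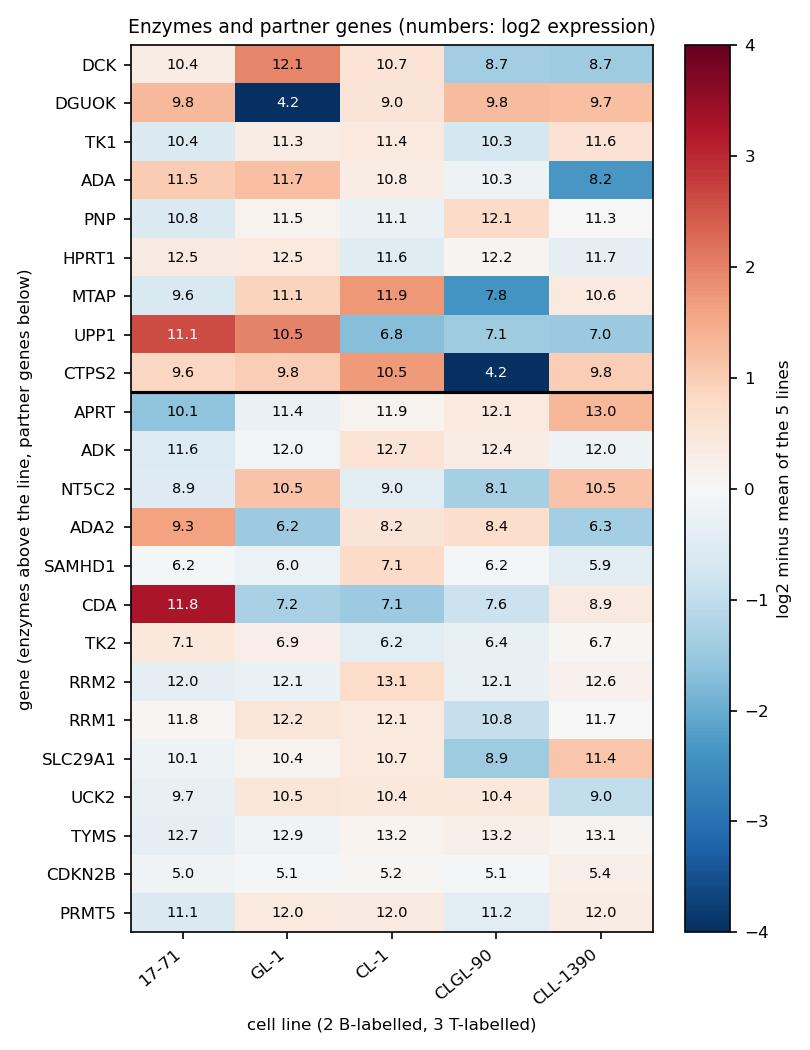
Log2 expression (numbers) of the 9 enzymes (above the black line) and of 14 partner genes of the same routes (below it) in the 5 lines, coloured by the distance from each gene's mean over the lines, with the colour scale ending at 4 on either side. The darkest cells are DGUOK in GL-1 (4.22), CTPS2 in CLGL-90 (4.25) and CDA in 17-71 (11.79).

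CLGL-90 was also the lowest line for several genes of nucleotide supply, none of them by log2 2. SLC29A1, the transporter ENT1 that carries nucleosides and their analogues into cells, stood at 8.86 in CLGL-90 against 10.08 to 11.40. RRM1, the large subunit of ribonucleotide reductase and the target of gemcitabine, read 10.78 against 11.66 to 12.17. PPAT, the first enzyme of purine synthesis, read 7.94 in CLGL-90 and 8.02 in CLL-1390 against 9.45 to 10.22. MRI1, which acts after MTAP in methionine salvage, read 7.46 against 8.52 to 10.15, and PRPS2 9.003 against 9.64 to 10.44. By the other MRI1 probe sets CLGL-90 was lowest by less, at 7.82 against 7.90 to 8.84 and 7.33 against 7.75 to 9.14. Both of those steps are within the widest range of the spikes (0.80). Among replication genes MCM4 (10.66 against 11.81 to 12.42) and MCM2 (8.15 against 9.16 to 9.94) were lowest in CLGL-90 as well. The median of the de novo list lay 0.54 and that of the S phase list 0.36 below the median of the other lines in CLGL-90, and 17-71 was likewise 0.36 below for the S phase list. These are the lines with the lowest TK1 values. PRPS1 was lowest there too (9.88 against 10.37 to 11.15). UMPS (11.42 to 12.44), TYMS, thymidylate synthase (12.66 to 13.25), and RRM2, the small reductase subunit (12.02 to 13.13), were instead lowest in 17-71. The next line was CLGL-90 for UMPS (11.73) and RRM2 (12.11), and GL-1 for TYMS (12.89). Those steps are within the widest range of the spikes (0.80). PRMT5, studied as a target in cells without MTAP, was at 11.19 in CLGL-90 and 11.07 in 17-71 against 11.96 to 12.03.

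CL-1 was highest for several others. RRM2B, the reductase subunit induced by p53, read 8.36 against 6.40 to 7.04, with 17-71 (6.58) and CLGL-90 (6.40) under the control ceiling. SLC25A36, a mitochondrial pyrimidine nucleotide carrier, read 9.75 against 7.38 to 8.38, and SRM, spermidine synthase, 12.04 against 10.62 to 10.99. ODC1, the first enzyme of polyamine synthesis, was at 13.96 against 12.66 to 13.38, the replication licensing factor CDC6 at 12.03 against 10.22 to 11.10, and cyclin E2 (CCNE2) at 10.98 against 9.41 to 10.09. CLL-1390 was lowest for GGH, which removes glutamates from methotrexate (10.09 against 11.19 to 12.22), AMD1 (10.20 against 11.00 to 11.91) and SMS (10.48 against 10.98 to 11.33), and highest for CDC45 (10.56 against 8.69 to 9.35). TOP2A stood at 12.55 and 12.39 in the B-labelled lines against 11.37 to 12.01. The other named genes ranged over at most 1.55 (SLC25A33, ITPA, NUDT1, MAT2B, ABCC5 and ABCC4), and ABCC4 was at or under the control ceiling in 4 lines.

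For the 4 members with a line at least log2 2 below the rest by some probe set, the nearest genes in the order of the dog reference genome were read in the same line, up to 3 on each side that had a probe set. This look at neighbours was chosen after the members' values were seen. Around DGUOK in GL-1, none of 6 neighbours was comparably low. BOLA3, TPRKB and DUSP11 were lowest in GL-1, by steps of 0.92, 1.03 and 0.61, and 1.67% of all genes had GL-1 at least log2 0.5 below every other line. BOLA3, which serves mitochondrial iron-sulfur proteins, read 9.62 in GL-1 against 10.53 to 11.39, and TPRKB 10.58 against 11.61 to 12.34. MOB1A, TET3 and ACTG2, the other three, lay at -0.20 to 0.14 from the median of the other lines.

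Around ADA in CLL-1390, PKIG, an inhibitor of protein kinase A and the adjacent gene, went the other way. It read 12.82 in CLL-1390 against 7.20 to 9.39, a step of 3.43 above the next line. SERINC3 was also highest in CLL-1390, by 0.68, and TTPAL, CCN5, KCNK15 and YWHAB were 0.10 to 0.20 above the median of the other lines. Around CTPS2 in CLGL-90, the adjacent SYAP1 read 10.44 against 10.29 to 10.96, 0.25 below the median of the other lines. TXLNG, the next gene, read 6.70 there, under the control ceiling and 0.59 below that median, as low as in GL-1 (6.69) and CLL-1390 (6.72). AP1S2, on the other side, read 11.03, which was 1.09 above the median. S100G, GRPR and REPS2 were under the control ceiling everywhere. Around MTAP, LOC611406 was the only gene read on its side, at position -5 in gene order, and the genes between were not read. It was above the control ceiling in all 5 lines (7.49 to 8.01) and read 8.01 in CLGL-90, 0.28 above the median of the other lines. Its range of 0.52 was within that of the spikes. CDKN2B (5.04 to 5.43), DMRTA1 and ELAVL2, on the other side, were under the ceiling in every line, so these 3 probe sets cannot show whether CLGL-90 differs there. CDKN2A had no probe set named for it in the annotation.

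**Figure D4:**
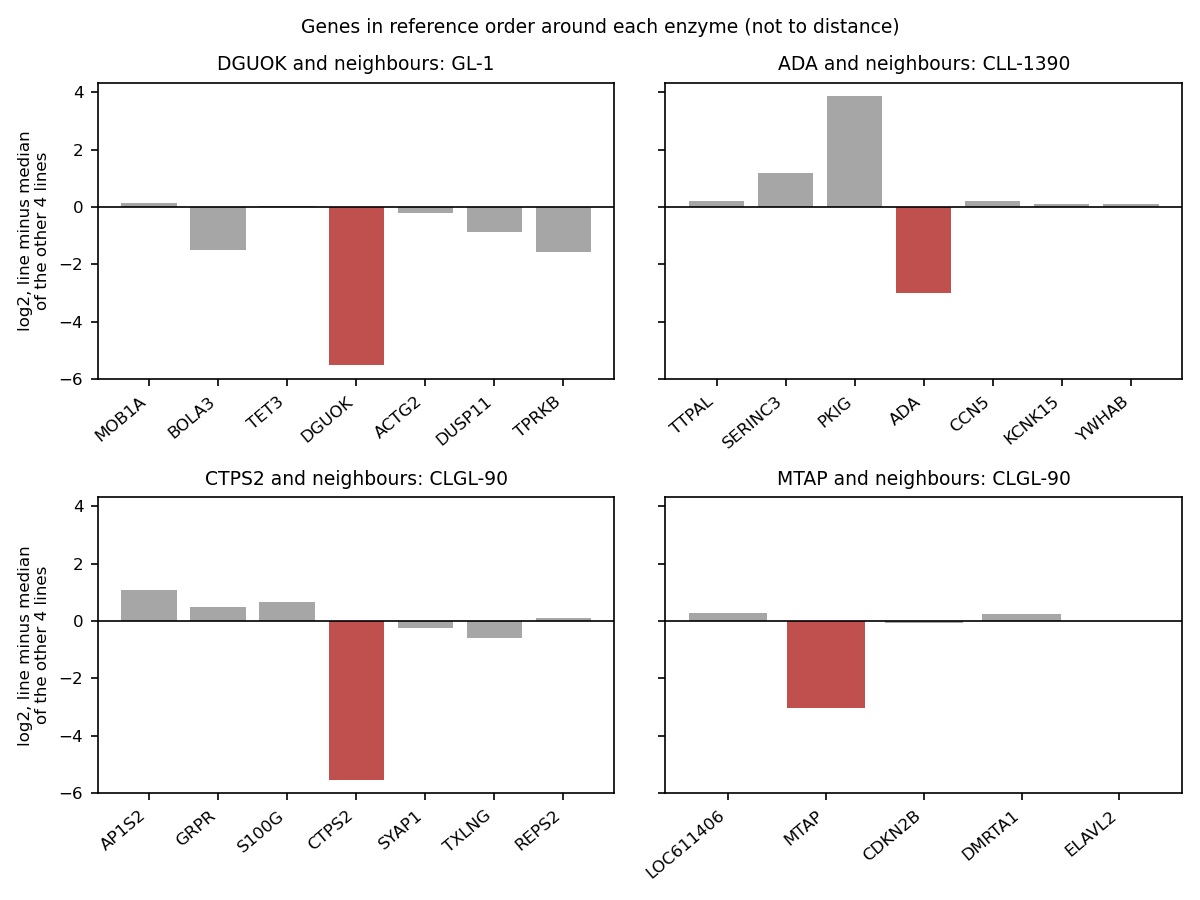
Log2 expression in the named line minus the median of the other 4 lines (vertical axis) for each enzyme (red) and its nearest genes with a probe set (grey), in the gene order of the reference and not to distance. The enzymes lie at -5.53 (DGUOK), -3.00 (ADA), -5.54 (CTPS2) and -3.04 (MTAP, representative probe set), and PKIG beside ADA at 3.85.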

How the data were processed

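The table analysed holds log2 expression per probe set that the authors deposited for 5 arrays, 1 per line. Per the submitters' processing notes, GCRMA was used, a method that corrects background, normalizes between arrays and summarises probes (version, scanner and filters: not given in the sources used here). RNA had a RIN above 9, per the labels. Of 42924 probe sets, 29254 carried 1 gene symbol, 439 several (not used for genes) and 13231 none here; gene IDs of 94.6% of the first were found in the RefSeq gene table of assembly UU_Cfam_GSD_1.0, used for names and gene order. The brightest probe set on average stood for each of 15115 genes. limma 3.58.1 in R 4.3.3 (lmFit, eBayes, residual df 3, prior df 1.74) compared the labels over 14162 genes and 36661 probe sets with log2 5 or more on 2 arrays. Tested on simulated data with 14162 genes and 200 shifted, it recovered 0% at log2 1, 39% at 2 and 81% at 4, with 0, 2 and 11 false calls. With 200 genes shifted the adjusted threshold is easier to reach than in these data, where 1 gene was called, so recovery here may be lower. Alternatives were no filter, log2 7, quantile normalization again, centred arrays, a floor of log2 4, a trended robust prior, a separate group for CLGL-90, other probe set summaries and leaving out each line. The number of arrays limits precision, and p-values measure only the spread between these lines.

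Members and lists were chosen with earlier results of these data known. Genes were named by a rule: the members, 19 partner genes (14 with a probe set), up to 4 genes per list by difference and up to 4 by step of a single line, and the 2 genes most like each varying member. CTPS1, TYMP, DCTD, UPP2 and CDKN2A were not analysed here. The neighbouring genes, and the step of log2 0.5 used for them, were chosen after seeing the data.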

Additional observations from a re-analysis of the deposited data

How the results depend on the processing

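No enzyme passed the threshold on the deposited values, and over 126 recomputed differences 116 kept their direction and side of the threshold, 2 passed (UPP1) and 8 changed sign. With CLGL-90 set apart as its own group, differences were -0.43 for CTPS2 and -0.91 for MTAP. Leaving out each line in turn gave -5.29 to 0.32 for DGUOK, -0.43 to 2.70 for CTPS2, -0.91 to 1.15 for MTAP and -0.67 to 0.21 for TK1; a lone B-labelled line is there assumed to vary like the other lines. DCK, ADA, HPRT1, PNP and UPP1 kept their sign in all 14 alternatives each. Steps of a single line moved with the probe sets: with their mean, DGUOK stood at 4.13, MTAP at 3.61, CTPS2 at 1.89 and ADA at 1.86. The last 2 were under the log2 2 used for counting. The mean of CTPS2 includes 2 probe sets that were too dim to test in any line. Counts of called genes, 1 on the deposited values, were 9 with the filter at log2 7, 8 after quantile normalization again, 8 with centred arrays, 10 with the trended robust prior, 3 with the mean of probe sets, 11 with the probe set of highest variance, and 0 with CLGL-90 set apart (622 unadjusted) or without any 1 line (474 to 769 unadjusted, limma). Counts of probe sets, 5 on the deposited values, were 3 without a filter, 14 at log2 7, 3 with centred arrays, 15 with the trended prior, and 0 in the last 2 settings. Of the related genes, 0 passed in limma in every setting (0 to 6 unadjusted). Low values near the non-dog controls have no reliable size.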
